A study of Mus musculus with 24 samples.

Results

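The genes described here encode the voltage-gated sodium channels of cortical neurons and the proteins that hold them at the axon initial segment, the stretch of axon next to the cell body where action potentials start. They were taken by name from the deposited expression tables: 9 of the 25135 genes listed at both ages, namely the pore-forming subunits Scn1a, Scn2a, Scn3a and Scn8a, the accessory beta subunits Scn2b and Scn4b, and the axonal proteins Ank3, Nfasc and Sptbn4. All 9 were found in both tables.

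RNA of sorted nuclei from mouse cortex was sequenced at postnatal day 1 (P1) and day 30 (P30), with 6 libraries per genotype at each age and 24 in all. WT mice were Kdm6b wt/wt. Whether they carried Emx1-Cre is not written out in the sources used here, though their nuclei were also sorted as Emx1 lineage. Kdm6b-cKO mice were Emx1-Cre; Kdm6b f/f littermates, in which Cre driven from the Emx1 locus deletes the floxed part of Kdm6b, the gene of a histone H3 lysine 27 demethylase, in dorsal telencephalic progenitors and their progeny. Both genotypes were backcrossed to C57BL/6 and carried the SUN1-GFP reporter, a nuclear envelope tag by which nuclei of the Emx1 lineage were sorted, so that glutamatergic neurons, astrocytes and oligodendrocytes of that lineage were all included. Whether each library came from a separate animal is not given in the sources used here, so p-values measure the spread between these libraries.

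A sodium channel is built around one large pore-forming subunit, and beta subunits modify its gating and its attachment to the membrane. In the rodent cortex Scn3a is known as the embryonic and neonatal subunit, Scn2a as the main subunit of early axons, Scn8a as the subunit of the mature axon initial segment and node of Ranvier, and Scn1a as the subunit of the soma and axon of fast-spiking inhibitory neurons in particular. Ank3 encodes ankyrin-G, the organizer to which the channels bind, Sptbn4 the beta-IV spectrin that ties ankyrin-G to actin, and Nfasc neurofascin, a cell adhesion molecule that is used by neurons in one isoform and by oligodendrocytes in another.

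Values are FPKM, fragment counts corrected for transcript length and for the size of the library, so levels of different genes can be set side by side per length. The P1 and P30 tables were normalized separately, and levels set across ages are therefore given as listed, without a test. Genotypes were compared within an age by limma on log2(FPKM + 0.1), and a gene was called at an adjusted p under 0.05 with a difference of more than 2-fold. A log2 fold change on this scale is Kdm6b-cKO less WT and understates the difference of low genes.

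Effective depth, read from the steps that single reads make in low values, was 191000 to 3900000 reads per library at P1 and 1938000 to 8315000 at P30. Kdm6b itself, counted over the whole gene, was at 37.8 ± 11.3 FPKM in WT and 29.0 ± 9.69 in Kdm6b-cKO at P1, and at 21.6 ± 4.09 and 23.4 ± 4.37 at P30 (mean ± SD, n = 6 each). These whole-gene values overlapped between genotypes, reads on the floxed part alone were not analysed here, and the values give no check of the labels. At P1, 4 WT libraries (2, 3, 4 and 5) and Kdm6b-cKO library 5 had signal in 397 to 794 of 1128 olfactory receptor genes, against 2 to 22 in the other 7, and the 45S pre-ribosomal transcript Rn45s was at 3423 and 3239 FPKM in Kdm6b-cKO libraries 0 and 1, against at most 898.5 elsewhere. At P30, Rn45s was at 174.9 to 450.1 FPKM in 4 libraries (WT 0 and Kdm6b-cKO 0, 1 and 5) and at 1629 to 25878 in the other 8. Since 4 of the libraries with olfactory receptor signal were WT and 1 was Kdm6b-cKO, genotype and that split partly coincide at P1. Values with and without these libraries are given beside several of the results that they move.

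The pore-forming genes Scn1a, Scn2a and Scn3a lie together on chromosome 2 of mm9, the build of the deposited files, at chr2:66108839-66278894, chr2:65458826-65605504 and chr2:65295175-65405549. Scn8a lies at chr15:100701076-100876369, Scn2b within chr9:44887266-44943689 and Scn4b at chr9:44946707-44962238. The region of Scn2b was shared in the tables with Gm10684 and Jaml. Ank3 lies at chr10:68996456-69490184, Nfasc at chr1:134461267-134638374, a region shared with Gm10538, and Sptbn4 at chr7:28141402-28231608.

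For 7 of the 9 genes RefSeq (GRCm38.p6) gives promoter windows, 13 in all; Scn3a and Ank3 were not matched. The 250 bases before the most upstream start listed in RefSeq are shown for 4 genes: Nfasc and Sptbn4, whose levels at P30 were all higher in the libraries with more 45S transcript, Scn8a, whose levels there overlapped by 1 library, and Scn2b, whose levels were all lower in those libraries, with each CG dinucleotide (the letters CG, which read the same on both strands) in capitals. Each window had a single exact match in the mm9 genome, whose coordinates are given here. That of Scn8a is chr15:100700826-100701075 (plus strand), that of Sptbn4 chr7:28231609-28231858 (minus strand) and that of Scn2b chr9:44925709-44925958 (plus strand). The Nfasc window is chr1:134603904-134604153 (minus strand), well inside the gene's region and not at the upstream end of the region.
Scn8a: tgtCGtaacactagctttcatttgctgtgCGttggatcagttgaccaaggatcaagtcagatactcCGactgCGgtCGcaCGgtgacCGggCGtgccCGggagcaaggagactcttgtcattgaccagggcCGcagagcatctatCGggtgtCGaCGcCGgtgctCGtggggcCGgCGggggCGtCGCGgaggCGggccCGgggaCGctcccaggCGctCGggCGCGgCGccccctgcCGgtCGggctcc
Nfasc: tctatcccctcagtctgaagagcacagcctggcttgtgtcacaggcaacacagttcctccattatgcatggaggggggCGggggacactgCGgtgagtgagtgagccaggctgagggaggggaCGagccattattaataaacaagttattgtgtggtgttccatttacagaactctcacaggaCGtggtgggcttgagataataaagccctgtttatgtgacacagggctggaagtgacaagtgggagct
Sptbn4: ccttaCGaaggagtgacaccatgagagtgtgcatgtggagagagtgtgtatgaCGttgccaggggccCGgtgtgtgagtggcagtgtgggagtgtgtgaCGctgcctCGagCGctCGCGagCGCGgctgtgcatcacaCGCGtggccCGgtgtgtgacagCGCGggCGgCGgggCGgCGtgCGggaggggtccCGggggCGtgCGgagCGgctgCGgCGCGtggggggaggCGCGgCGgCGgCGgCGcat
Scn2b: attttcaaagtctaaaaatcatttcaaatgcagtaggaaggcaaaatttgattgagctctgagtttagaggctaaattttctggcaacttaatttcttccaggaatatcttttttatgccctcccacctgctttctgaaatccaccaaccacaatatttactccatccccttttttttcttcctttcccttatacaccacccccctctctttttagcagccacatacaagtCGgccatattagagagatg

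The Sptbn4 window held 33 CG dinucleotides and the Scn8a window 30, the Nfasc window 4 and the Scn2b window 1. Over all 32841 windows of this length the median was 6, and 92.1% held at least 1. Only 4.03% of windows held as many as that of Sptbn4 and 5.94% as many as that of Scn8a. The GC content was 72.0% for Sptbn4, 68.0% for Scn8a, 52.0% for Nfasc and 38.4% for Scn2b, against a median of 52.4%. For Scn1a, whose levels at P30 were also all higher in the libraries with more 45S transcript, the window held 4 CG dinucleotides and had a GC content of 46.8%. Windows at other starts held 28, 23 and 1 for Sptbn4, 9 for Scn8a and 1 for Nfasc. Among genes whose levels overlapped in the 45S split, the Scn4b window held 23 and the Scn2a windows 2 and 9. Whether CG content went with the levels was not tested.

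In WT cortex the pore-forming subunits stood in one order at P1 and in another at P30. Scn3a was the highest of them at P1, with 22.1, 27.7 and 36.7 FPKM (lowest, median and highest of 6 WT libraries), followed by Scn2a with 15.5, 16.5 and 25.2. Scn1a ranged from 7.77 to 11.6 and Scn8a from 7.12 to 12.0, and these last did not differ beyond their spread, since Scn1a was the higher in 4 of 6 libraries. In every WT library at P1 Scn3a lay above Scn2a.

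At P30 Scn1a and Scn8a led instead. Scn1a was listed at 41.9, 53.7 and 57.5 FPKM and Scn8a at 32.7, 52.8 and 63.6 (lowest, median and highest, WT), each the higher in 3 of 6 libraries. Scn2a followed at 28.1 to 36.9 and Scn3a came last at 12.5 to 18.9, below Scn2a in all 6. Set side by side as listed, the WT mean at P30 over that at P1 was 5.30 for Scn1a, 5.41 for Scn8a, 1.83 for Scn2a and 0.613 for Scn3a, and the ranges of the ages did not overlap for any of these 4 genes.

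**Figure D1:**
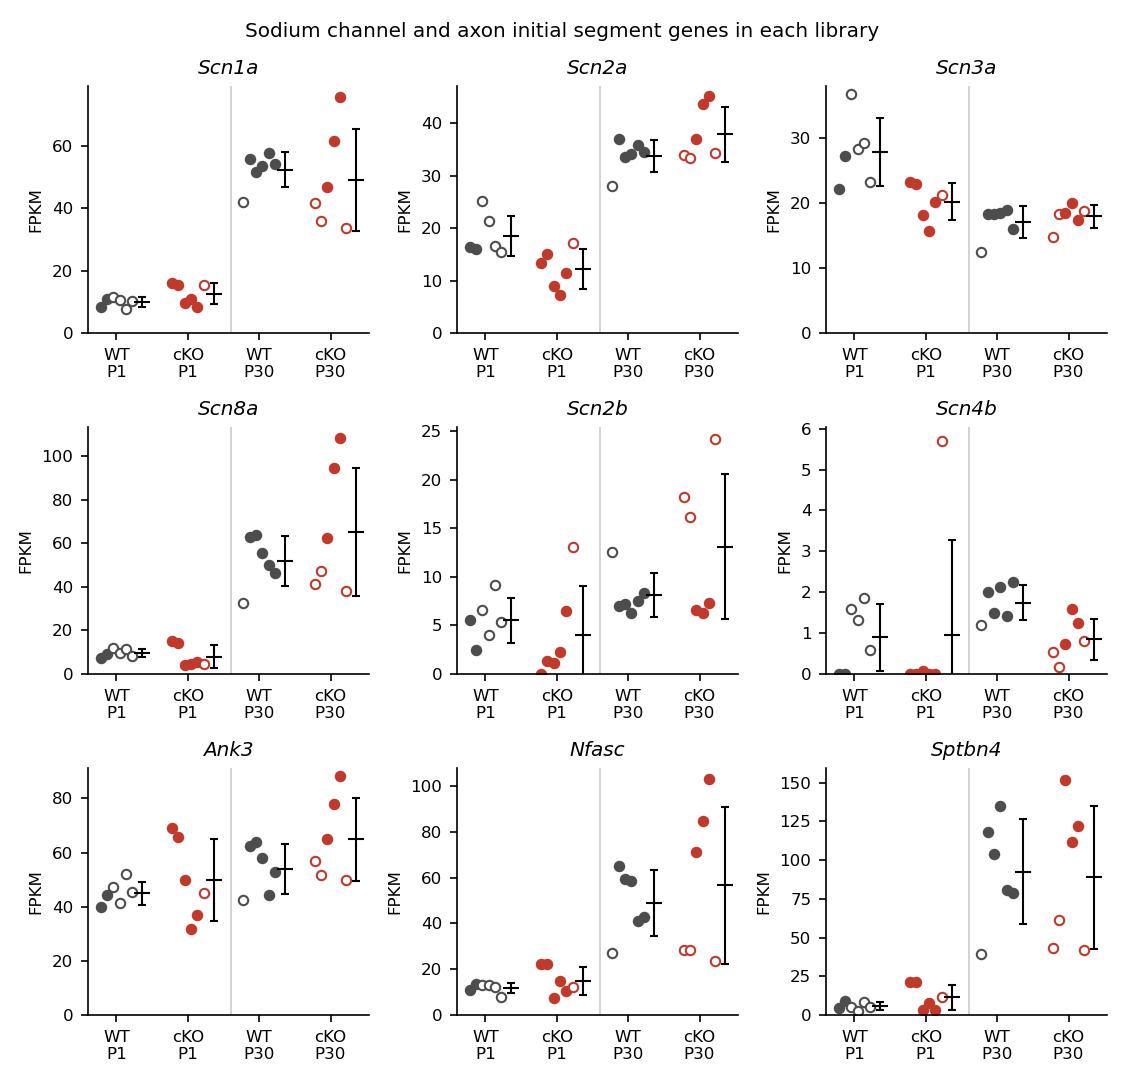
FPKM of the 9 genes in each library (vertical axes start at 0; y axis in FPKM), by genotype and age, 6 libraries a group in the order of their numbers. Open points are the libraries with olfactory receptor signal at P1 or with Rn45s below 1000 FPKM at P30; bars are mean ± SD, cut off at 0. Scn1a, Scn8a, Nfasc and Sptbn4 sit far higher at P30 than at P1 in both genotypes, while Scn3a in WT is 12.5 to 18.9 at P30 against 22.1 to 36.7 at P1.

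Shares within a library do not depend on how the tables were scaled. Of the summed FPKM of the 4 pore-forming subunits, Scn3a made up 42.2% ± 1.78 in WT at P1 and 11.0% ± 0.460 at P30 (mean ± SD, n = 6). Scn1a made up 15.2% ± 2.27 at P1 and 33.9% ± 2.28 at P30, and Scn8a 14.6% ± 1.51 and 33.1% ± 3.72. Scn2a kept a closer share, 28.1% ± 2.41 and 22.0% ± 1.50. In the ratio of FPKM within a library, Scn8a over Scn3a was 0.322 to 0.389 in the WT libraries at P1 and 2.62 to 3.48 at P30, and Scn1a over Scn3a 0.266 to 0.449 and 2.82 to 3.39.

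In Kdm6b-cKO nuclei the mean at P30 over that at P1, as listed, was 3.89 for Scn1a, 8.15 for Scn8a, 3.10 for Scn2a and 0.887 for Scn3a. The ranges of the ages did not overlap for the first 3 of these genes, but did for Scn3a, whose means were 20.2 and 17.9 FPKM. As a share, Scn3a made up 39.0% ± 4.88 of the sum at P1 and 11.2% ± 2.91 at P30, and Scn8a 14.2% ± 5.89 and 37.0% ± 5.70 (mean ± SD, n = 6). The Scn8a mean at P1 joined separate levels on both sides of the WT range of 13.2% to 17.5%. It was 22.4% and 20.8% in the high-45S libraries 0 and 1 and 8.01% to 11.9% in libraries 2 to 5. The mean share of Scn1a differed most from WT. At P1 the Scn1a share was 18.3% to 28.5% in the Kdm6b-cKO libraries, all above the WT range of 12.0% to 18.2%. Those ranges nearly touched, and how often such shares separate for other genes was not examined. At P30 the Scn1a share was 26.6% to 31.6%, against 30.8% to 36.4% in WT, so that the groups overlapped there. These shares are a description and were not tested. At P1 the higher share of Scn1a in Kdm6b-cKO stood beside lower mean FPKM of Scn2a and Scn3a. The mean FPKM of Scn1a itself was higher there, at 12.6 against 9.87 in WT. In the high-45S libraries 0 and 1 the Scn1a share was 23.7% and 23.0%, within the range of the other 4.

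**Figure D2:**
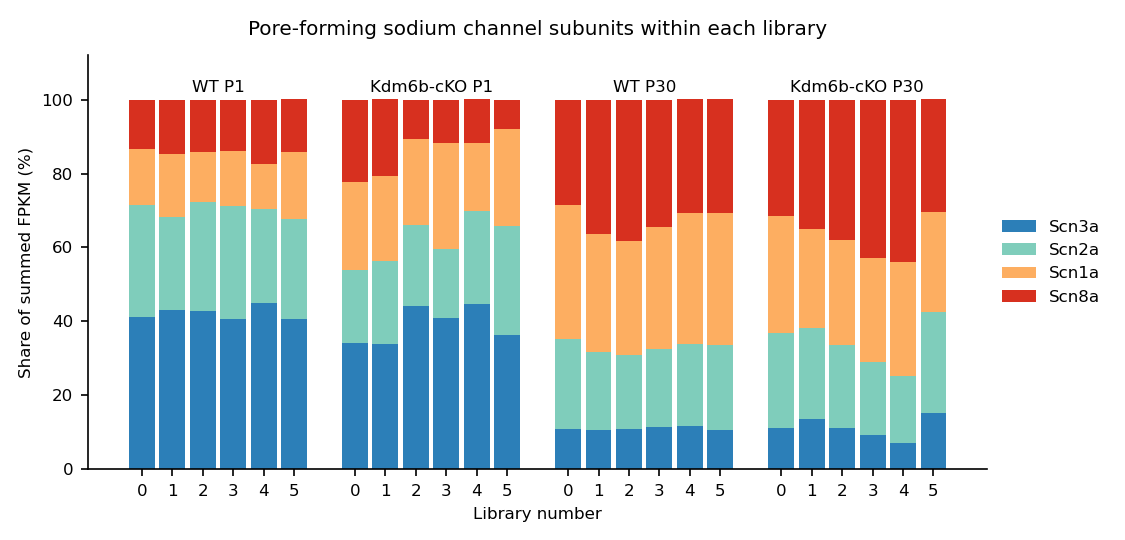
Share (%, y axis) of Scn3a, Scn2a, Scn1a and Scn8a in their summed FPKM in each of the 24 libraries (x axis, library number within the group). Scn3a makes up 42.2% on average in WT at P1 and 11.0% in WT at P30, with Scn1a and Scn8a taking the larger part at P30.

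The comparison of genotypes at P1 asked whether loss of Kdm6b in the Emx1 lineage altered these genes in newborn cortex. Of the 9 genes, 8 were tested and 0 were called, as were 0 of all 16250 genes tested (0%). Leaving out 1 library at a time called 0 members each time and 0 to 52 of all genes, with 52 without Kdm6b-cKO library 4, 5 without Kdm6b-cKO library 5 and 2 without WT library 4. On average Scn2a and Scn3a were lower in Kdm6b-cKO at an unadjusted p under 0.05, a threshold that 2352 of all genes tested passed (14.5%). The groups of 0 of the 8 genes were separate, against 1.29% of all genes tested. Of the 8, 4 had a log2 fold change below 0, with a median of -0.18, against 63.2% and a median of -0.25 over all genes. That all-gene median was -0.02 after quantile normalization, which left Scn2a at -0.63 and moved Scn3a to -0.57.

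Scn2a was at 15.5, 16.5 and 25.2 FPKM in WT (lowest, median, highest) and at 7.23, 12.4 and 17.2 in Kdm6b-cKO at P1. Of the 6 Kdm6b-cKO libraries 5 lay below the lowest WT library; library 5, the shallowest with 191000 effective reads, did not. The log2 fold change was -0.63 ± 0.27 (SE, adjusted p = 0.301, limma; exact permutation p = 0.0173, two-sided). With the libraries weighted by depth, an alternative chosen after seeing the data, it was -0.90 with an adjusted p of 0.0472, below the 2-fold needed for a call; 3.04% of all genes passed that p under this weighting.

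Scn3a was at 22.1 to 36.7 FPKM in WT and at 15.7, 20.7 and 23.2 in Kdm6b-cKO at P1. Here 4 of 6 Kdm6b-cKO libraries lay below every WT library, and the other 2 were the high-45S libraries 0 and 1. The log2 fold change was -0.45 ± 0.21 (SE), which did not pass correction (adjusted p = 0.341, limma; exact permutation p = 0.00866). Within the 7 libraries without olfactory receptor signal, 2 WT and 5 Kdm6b-cKO, the difference was -0.31 for Scn3a (exact permutation p = 0.238) and -0.57 for Scn2a (exact permutation p = 0.143), where the smallest p possible is 0.0476. In the libraries with that signal only 1 Kdm6b-cKO library was present, 0.45 below the WT mean for Scn3a and 0.17 below it for Scn2a on the log2 scale.

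For Scn8a the Kdm6b-cKO libraries at P1 fell into separate levels. Libraries 2 to 5 held 4.31, 4.53, 5.35 and 4.68 FPKM, below all WT libraries (7.12 to 12.0), and the high-45S libraries 0 and 1 held 15.2 and 14.0, above all of them. Over all libraries the log2 fold change was -0.45 ± 0.38 (SE, adjusted p = 0.587, limma; exact permutation p = 0.240). Without libraries 0 and 1, left out after their values were seen, it was -0.99, with an adjusted p of 0.0876 and an exact permutation p of 0.00476, the smallest that 6 against 4 libraries allow. In that subset 2 of the 8 genes tested, Scn3a and Scn8a, had separate groups, against 4.87% of all genes tested. Within the libraries without olfactory receptor signal, libraries 0 and 1 among them, the Scn8a difference was -0.12 (exact permutation p = 0.905). In the libraries with that signal the 1 Kdm6b-cKO library was 1.11 below the WT mean on the log2 scale.

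Scn1a at P1 was at 7.77, 10.4 and 11.6 FPKM in WT and at 8.25, 13.2 and 16.1 in Kdm6b-cKO. The highest 3 values belonged to Kdm6b-cKO libraries 0, 1 and 5, which are the shallowest of that group, and the ranges overlapped. Its log2 fold change was 0.32 ± 0.26 (SE, adjusted p = 0.586, limma; exact permutation p = 0.134) and 0.02 with libraries weighted by depth.

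Among the beta subunits, Scn2b, which is linked to the pore by a disulfide bond, was at 2.45, 5.51 and 9.17 FPKM in WT and at 0, 1.84 and 13.1 in Kdm6b-cKO at P1. Of the 6 Kdm6b-cKO libraries 4 lay below the lowest WT library, namely libraries 0 to 3 at 0, 1.37, 1.14 and 2.32, and library 5 at 13.1 lay above the highest. The log2 fold change of -1.51 ± 0.90 (SE) did not pass correction (adjusted p = 0.458, limma; exact permutation p = 0.158). It was -0.67 without Kdm6b-cKO library 0, -2.08 without library 5 and -0.38 without the high-45S libraries 0 and 1. Within the libraries without olfactory receptor signal it was -1.62 (exact permutation p = 0.429). In those with the signal, Kdm6b-cKO library 5 lay 1.11 above the WT mean on the log2 scale. With that split as a term over all libraries the log2 fold change of Scn2b was -0.64.

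Scn4b, the beta subunit known for resurgent current, was too low at P1 for the filter of a mean of 1 FPKM and was not tested. Its values correspond to whole reads, 0, 0, 17, 8, 7 and 3 in WT libraries 0 to 5 and 0, 0, 1, 0, 0 and 5 in Kdm6b-cKO libraries 0 to 5. All but 1 of these reads lay in the 5 libraries with olfactory receptor signal. Scn4a and Scn10a, the sodium channels of muscle and of sensory neurons, also reached 4.85 and 4.99 FPKM among the Kdm6b-cKO libraries at P1, and whether Scn4b was expressed at P1 was not tested.

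The scaffold genes had means in Kdm6b-cKO at P1 that were similar to or above those of WT. Ank3 was the highest of the 9 genes, with 40.0, 44.9 and 51.9 FPKM in WT and 31.9, 47.4 and 69.1 in Kdm6b-cKO. Nfasc was at 7.85, 12.5 and 13.4 in WT and at 7.30, 13.5 and 22.4 in Kdm6b-cKO. Sptbn4 was the lowest of these 3 genes, with 2.50, 5.22 and 8.94 in WT and 3.13, 9.69 and 21.2 in Kdm6b-cKO. In each of the 3 genes the highest 2 values were those of the high-45S libraries 0 and 1 (69.1 and 65.8 for Ank3, 22.1 and 22.4 for Nfasc, 21.2 and 21.1 for Sptbn4), and the groups overlapped. The log2 fold changes were 0.09 ± 0.22 for Ank3, 0.26 ± 0.31 for Nfasc and 0.68 ± 0.52 for Sptbn4 (SE), with adjusted p of 0.861, 0.705 and 0.556 (limma). Without these libraries they were -0.15, -0.09 and 0.05.

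Markers of other cells are given beside these values, of which none was called at P1. Of 8 astrocyte markers tested 7 had lower means on the log2 scale in Kdm6b-cKO, with summed levels of 143 to 202 FPKM in WT and 82.1 to 149 in Kdm6b-cKO, and all 6 oligodendrocyte precursor markers did (32.8 to 52.5 against 18.8 to 33.7). The same held for 7 of 8 microglia markers (57.4 to 117 against 26.6 to 118) and 5 of 6 endothelial and mural cell markers (108 to 212 against 57.2 to 195). The median log2 fold change was -0.86 for the astrocyte list, -1.01 for the precursors, -0.87 for microglia and -0.81 for endothelial and mural cells, where 63.2% of all genes were below 0 with a median of -0.25. The sum of 12 glutamatergic markers was 479 to 738 in WT and 580 to 1003 in Kdm6b-cKO, and that of 12 GABAergic markers, which the Emx1 lineage in cortex largely lacks, 666 to 1454 and 907 to 2795. No marker of any of these lists was at 0 in every library. Their part in the differences of the channel genes was not tested, and in bulk nuclei fewer cells of a type and less RNA per cell cannot be told apart.

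At P30 the question was whether the mature set of channels differed between genotypes. All 9 genes were tested and 0 were called, against 37 of 13289 genes tested (0.278%). That count rests on single libraries: it was 2 without WT library 2, 3 or 5, 5 without WT library 4, and 10, 17 and 21 without Kdm6b-cKO library 0, 1 and 5, while 0 members were called each time. Only Scn4b passed an unadjusted p of 0.05, as did 12.7% of all genes, and the groups of 0 of the 9 were separate, against 1.94%. The median log2 fold change of the 9 was 0.08, with 3 below 0, against -0.05 and 54.8% over all genes.

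Scn4b was lower in Kdm6b-cKO in every library than the WT mean. It was at 1.20, 1.75 and 2.24 FPKM in WT (lowest, median, highest) and at 0.163, 0.776 and 1.59 in Kdm6b-cKO, which corresponds to 43, 55, 41, 50, 54 and 58 reads in WT libraries 0 to 5 and 17, 6, 9, 19, 11 and 19 in Kdm6b-cKO libraries 0 to 5. The groups overlapped through Kdm6b-cKO libraries 3 and 4, at 1.59 and 1.24. The log2 fold change was -1.15 ± 0.45 (SE) and did not pass correction (adjusted p = 0.317, limma; exact permutation p = 0.0152). Among the 8 libraries of higher 45S it was -0.63 (exact permutation p = 0.0714; 5 WT against 3 Kdm6b-cKO, smallest possible p 0.0179). In the other 4 libraries, 1 WT and 3 Kdm6b-cKO, it was -1.28, and no p under 0.25 is possible there.

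Scn2b differed the other way on average, with 6.29, 7.39 and 12.6 FPKM in WT and 6.31, 11.7 and 24.2 in Kdm6b-cKO. The high values, 12.6 in WT library 0 and 18.2, 16.2 and 24.2 in Kdm6b-cKO libraries 0, 1 and 5, were those of the low-45S libraries, and the other 8 libraries of both genotypes lay between 6.29 and 8.37. The log2 fold change was 0.51 ± 0.34 (SE, adjusted p = 0.570, limma; exact permutation p = 0.193), and -0.11 among the 8 libraries of higher 45S. Under weights that limma estimates for each library, Scn2b at 1.13 (adjusted p = 0.00575) and Scn4b at -1.67 (adjusted p = 0.0157) were called, as were 3.99% of all genes tested under that setting.

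The mature pore-forming subunits overlapped between genotypes at P30. Scn1a was at 41.9, 53.7 and 57.5 FPKM in WT and at 33.6, 44.1 and 75.7 in Kdm6b-cKO, with a log2 fold change of -0.15 ± 0.20 (SE, adjusted p = 0.810, limma). Under weights that limma estimates for each library it was -0.45 (adjusted p = 0.0315), short of 2-fold, where 14.2% of all genes passed that p. Scn8a was at 32.7, 52.8 and 63.6 in WT and at 38.1, 54.8 and 108 in Kdm6b-cKO, with 0.25 ± 0.28 (SE, adjusted p = 0.760). The Kdm6b-cKO values of Scn1a spread to both sides of WT and those of Scn8a beyond the highest WT value, with library 4 the highest in each gene.

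Scn2a and Scn3a, the genes that were lower in Kdm6b-cKO at P1 at an unadjusted p under 0.05 (limma), lay close between genotypes at P30. Scn2a was at 28.1 to 36.9 FPKM in WT and 33.4 to 45.2 in Kdm6b-cKO, with a log2 fold change of 0.16 ± 0.13 (SE, adjusted p = 0.670, limma). Scn3a was at 12.5 to 18.9 and 14.8 to 20.0, with 0.08 ± 0.14 (SE, adjusted p = 0.864). In both genes the Kdm6b-cKO mean was the higher at P30. Tested directly, the genotype effect at P30 less that at P1 was 0.79 ± 0.27 (SE) for Scn2a, with an unadjusted p of 0.00821 and an adjusted p of 0.242 by limma, and 0.53 ± 0.23 for Scn3a, with 0.0306 and 0.331; 13.2% of all genes tested had an unadjusted p under 0.05. Of the 8 genes tested for this difference 0 were called, against 1 of 12644 genes (0.00791%), and the difference for Scn2a passed an adjusted p of 0.05 under library weights (0.0406, as did 4.12% of all genes), depth weights (0.0388, as did 1.95%) and a term for the 45S level (0.0372, as did 2.89%), each time at less than 2-fold.

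**Figure D3:**
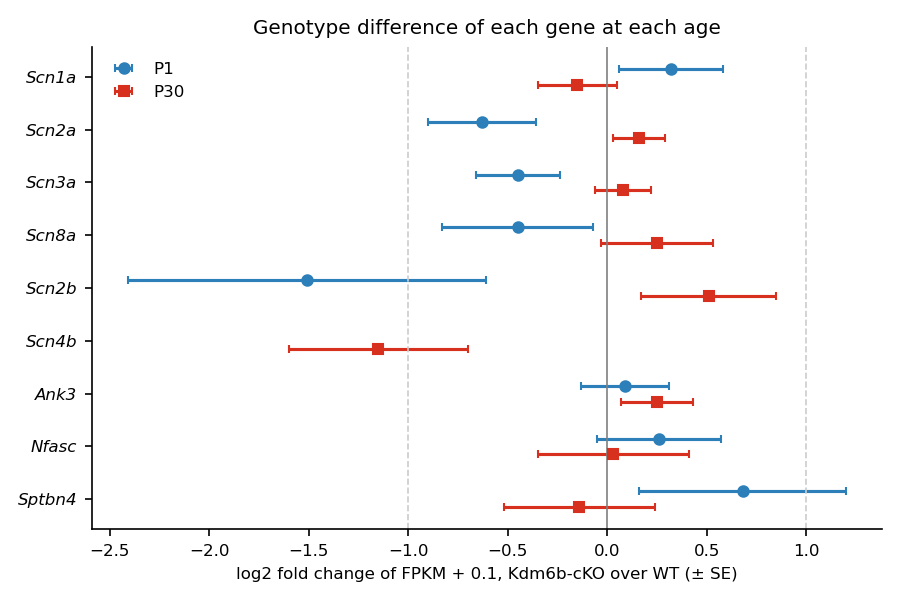
Log2 fold change of FPKM + 0.1 (x axis, Kdm6b-cKO over WT, ± SE of the limma fit, 6 libraries a group) of each gene at P1 (circles) and P30 (squares); dashed lines mark 2-fold. Scn2b and Scn4b, at -1.51 at P1 and -1.15 at P30, are the only genes past a dashed line, Scn4b has no P1 value, and no gene was called.

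Over all libraries at P30 the scaffold genes overlapped between genotypes and spread widely within each genotype. Sptbn4, listed at 5.83 FPKM in WT at P1, was the highest of the 9 genes with a mean of 92.7 ± 33.9 (SD, n = 6), 15.9 times the P1 mean as listed. Its Kdm6b-cKO mean was 88.8 ± 46.2, a log2 fold change of -0.14 ± 0.38 (SE, adjusted p = 0.915, limma). Nfasc was at 27.0, 50.5 and 65.1 in WT and at 23.6, 49.7 and 103 in Kdm6b-cKO, with 0.03 ± 0.38 (SE, adjusted p = 0.985). Ank3 was at 42.4, 55.3 and 64.0 in WT and at 50.0, 60.9 and 88.4 in Kdm6b-cKO, with 0.25 ± 0.18 (SE, adjusted p = 0.600). Of these genes Ank3 was the most alike between ages, at 1.20 times its P1 mean as listed in WT.

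The spread of several of these genes at P30 went with the 45S transcript. In the 4 low-45S libraries, 1 WT and 3 Kdm6b-cKO, Sptbn4 was at 39.5 to 61.6 FPKM, against 78.8 to 152 in the other 8. Nfasc was at 23.6 to 28.4 against 41.0 to 103, and Scn1a at 33.6 to 41.9 against 46.6 to 75.7. Scn2b lay the other way, at 12.6 to 24.2 in the low-45S libraries and 6.29 to 8.37 in the others. The ranges of these 4 of the 9 genes did not overlap between the low-45S libraries and the rest, against 14.9% of all genes tested. Scn8a overlapped by 1 library (32.7 to 47.1 against 46.4 to 108), and Ank3 (42.4 to 56.8 against 44.2 to 88.4), Scn2a, Scn3a and Scn4b overlapped as well. The highest values of Nfasc and Scn8a were those of Kdm6b-cKO libraries 3 and 4, which had 15420 and 25878 FPKM of Rn45s, the most of all libraries, and 2607000 and 1938000 effective reads. Since 3 of the 4 low-45S libraries were Kdm6b-cKO, genotype and the split partly coincide, and the values within the higher-45S libraries are given next.

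**Figure D4:**
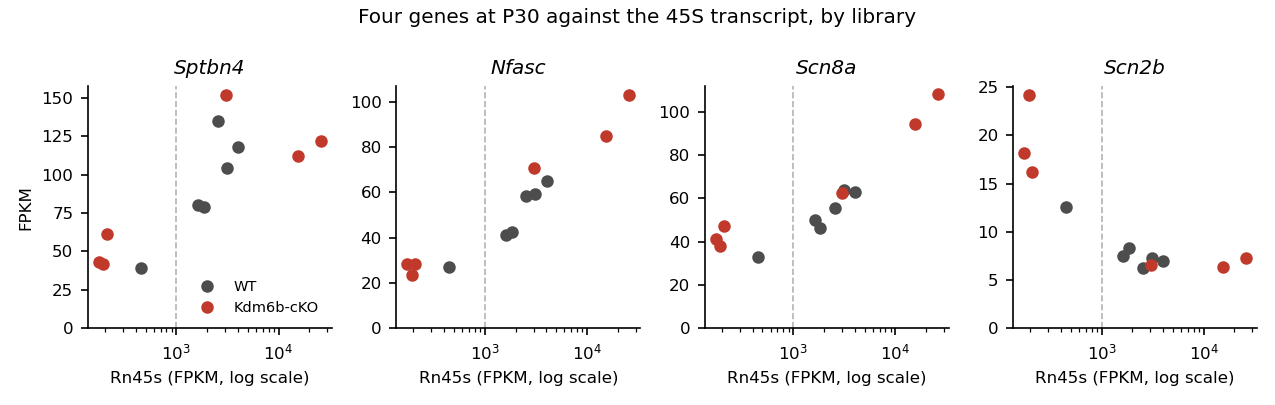
FPKM of Sptbn4, Nfasc, Scn8a and Scn2b (y axes from 0) against Rn45s (x axis, FPKM, log scale) in the 12 libraries at P30; the dashed line is at 1000 FPKM. The 4 libraries left of the line hold Sptbn4 at 39.5 to 61.6 and Scn2b at 12.6 to 24.2, and the 8 to its right 78.8 to 152 and 6.29 to 8.37.

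Among the 8 libraries of higher 45S, 5 WT and 3 Kdm6b-cKO, 0 of the 9 genes passed correction. Nfasc was at 41.0 to 65.1 FPKM in WT and 71.0 to 103 in Kdm6b-cKO (log2 difference 0.70, exact permutation p = 0.0179, the smallest possible). Scn2a reached the same exact permutation p, at 33.6 to 36.9 and 36.9 to 45.2 (0.26), separate before rounding. Ank3 was at 44.2 to 64.0 and 65.0 to 88.4 (0.45, exact permutation p = 0.0357), and Scn8a at 46.4 to 63.6 and 62.4 to 108 (0.64, exact permutation p = 0.0536). Sptbn4 (0.34, exact permutation p = 0.196) overlapped between genotypes, with highest values of 135 and 152, as did Scn1a at 51.4 to 57.5 and 46.6 to 75.7 (0.14, exact permutation p = 0.464). In this subset 3 of the 9 genes, Scn2a, Ank3 and Nfasc, had separate groups, against 20.1% of all genes tested, and none passed an adjusted p of 0.05 in limma on these libraries (Nfasc 0.0599, Scn8a 0.0746, Ank3 0.105, Scn2a 0.167), where 9.59% of all genes did. With the split as a term over all 12 libraries, Scn8a was at 0.56 (adjusted p = 0.0420), below 2-fold, and 10.7% of all genes passed that p.

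Marker lists are given beside these values at P30, where 0.278% of all genes tested were called and 54.8% had a log2 fold change below 0. All 10 mature oligodendrocyte markers had lower means on the log2 scale in Kdm6b-cKO and 2 were called, Mbp and Mag, both myelin proteins. The list summed to 268 to 526 FPKM in WT and 139 to 210 in Kdm6b-cKO. Of the 6 oligodendrocyte precursor markers 5 were below 0 and 1 was called, Sox10, a transcription factor of the whole lineage (log2 fold change -1.46, adjusted p = 0.0204, limma). The 12 GABAergic markers summed to 41.5 to 530 in WT and 203 to 379 in Kdm6b-cKO, with 289 to 530 in the low-45S libraries and 41.5 to 364 in the others, and all 9 tested had a log2 fold change above 0 with none called. The 12 glutamatergic markers summed to 334 to 688 in WT and 252 to 777 in Kdm6b-cKO, with 252 to 334 in the low-45S libraries and 488 to 777 in the others. Of these 12, 9 had a log2 fold change below 0 (median -0.28), and Slc17a6, a vesicular glutamate transporter, was called lower. Of 8 astrocyte markers 6 were below 0 (median -0.06), and of 5 microglia markers tested 4 were above 0 (median 1.52). Of 2 endothelial and mural cell markers tested 1 was above 0. None of these last 3 lists held a called gene. Leaving out 1 library at a time, Mag kept an adjusted p under 0.05 in 12 of 12 fits, Mbp in 6, Sox10 in 7 and Slc17a6 in 2; Mbp lost it without WT library 2, 3, 4 or 5 or Kdm6b-cKO library 0 or 1, Sox10 without the same WT libraries or Kdm6b-cKO library 0, and Slc17a6 without any library other than Kdm6b-cKO 2 and 3. No marker of these lists was at 0 in every library. Nfasc is expressed by oligodendrocytes and Scn1a by inhibitory neurons as well, and the part of these cells in the values of the 9 genes was not tested.

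Other genes of the axon initial segment and node were given by lists of 44 genes: further sodium channel subunits, fibroblast growth factor homologous factors that bind the channels, potassium channels, scaffold and adhesion proteins, and nodal matrix. At P1, 37 of them were tested and 0 were called, as were 0% of all genes. Of the 37, 34 had a log2 fold change below 0, against 63.2% of all genes, with a median of -0.51 against -0.25. At an unadjusted p under 0.05, 9 were lower and 0 higher, where 7.77% of all genes were lower and 6.70% higher. At P30, 39 were tested and 0 were called, against 0.278% of all genes. Of the 39, 18 were below 0, against 54.8% of all genes, with a median of 0.08 against -0.05. At an unadjusted p under 0.05, 3 were lower and 3 higher, where 7.37% and 5.34% of all genes were.

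At P1 the smallest p within the lists belonged to Kcnab2, a subunit of the juxtaparanodal potassium channels, Dlg2, the scaffold PSD-93, Cntn1, the adhesion protein contactin-1, and Tnr, the matrix protein tenascin-R. Kcnab2 was at 3.57 to 6.41 FPKM in WT and 0.422 to 3.51 in Kdm6b-cKO, the one gene of the 37 whose groups were separate, against 1.29% of all genes tested. Its log2 fold change was -1.38 ± 0.55 (SE, adjusted p = 0.275, limma). Dlg2 was at -1.22 ± 0.35 (adjusted p = 0.190), Cntn1 at -0.91 ± 0.28 (adjusted p = 0.194) and Tnr at -2.29 ± 0.79 (adjusted p = 0.215). Scn3b, the beta subunit that is prominent in embryonic neurons, was at 19.5 to 43.9 FPKM in WT and 19.5 to 34.4 in Kdm6b-cKO (log2 fold change -0.50 ± 0.25, adjusted p = 0.365). Of the factors that bind the channels, Fgf14 had the smallest p, at -0.83 ± 0.41 (adjusted p = 0.365). None of these genes passed correction.

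At P30 Chl1, an adhesion molecule of the L1 family, was the one gene of the 39 to pass an adjusted p of 0.05, as 0.369% of all genes did. It was at 8.85 to 11.9 FPKM in WT and 15.8 to 22.4 in Kdm6b-cKO, without overlap, a log2 fold change of 0.81 ± 0.14 (SE, adjusted p = 0.0298, limma) and thus short of 2-fold. It kept an adjusted p under 0.05 in 4 of 12 fits that left out 1 library, and lost it without WT library 0, 2, 3, 4 or 5 or Kdm6b-cKO library 0, 1 or 3 (adjusted p up to 0.0937). Camsap2, a microtubule minus-end protein, was also separate between genotypes, at 6.78 to 8.36 and 8.75 to 24.6 (0.66 ± 0.25, adjusted p = 0.301), which makes 2 of the 39 genes against 1.94% of all genes tested. On the lower side stood Hapln2, a matrix link protein of the node made by oligodendrocytes (18.5 to 65.5 against 3.93 to 21.7, log2 fold change -1.91 ± 0.39, adjusted p = 0.0567), and Kcna1, a juxtaparanodal potassium channel (18.1 to 27.6 against 9.58 to 18.2, -0.76 ± 0.21, adjusted p = 0.151). Scn3b was at 0.42 ± 0.24 (adjusted p = 0.496) and Fgf12 at -0.12 ± 0.15 (adjusted p = 0.776), each the smallest p of its list.

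**Figure D5:**
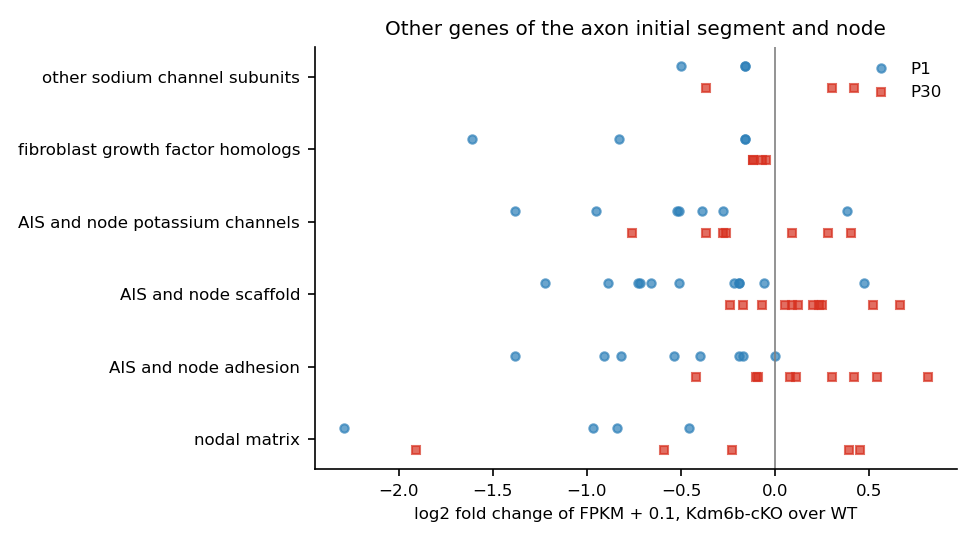
Log2 fold change of FPKM + 0.1 (x axis, Kdm6b-cKO over WT) of the other genes of the axon initial segment (AIS) and node, 1 point a gene, by list, at P1 (circles, 37 genes) and P30 (squares, 39 genes). At P1 34 of the 37 points lie below 0, against 63.2% of all genes tested, and at P30 18 of the 39, against 54.8%. Tnr at -2.29 and Hapln2 at -1.91 lie farthest from 0, and 0 of the genes shown were called.

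The beta subunit Scn3b, set side by side as listed, was at 35.9 ± 9.20 FPKM in WT at P1 and 11.6 ± 3.44 at P30 (mean ± SD, n = 6), the same order of the ages as Scn3a.

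Across the 12 libraries at P1, the genes whose log2 values were most like those of Scn3a, among 9724 others with a mean of at least 5 FPKM, were Tanc2 (Pearson r = 0.943, Spearman rho = 0.867), Scn2a (0.901 and 0.762) and Sorbs2 (0.889 and 0.762). Without the 2 libraries farthest from the median of Scn3a, r was 0.895, 0.772 and 0.687. At P30 the genes most like Scn1a, among 8947 others, were Pcdh1 (r = 0.969, rho = 0.979), Cep170b (0.956 and 0.916) and Erc2 (0.952 and 0.930), with r of 0.937, 0.953 and 0.968 without the 2 farthest libraries. These are descriptions over libraries that share genotype, depth and the 45S split, picked as the highest of many.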

How the data were processed

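Nuclear RNA of 24 libraries, 6 per genotype and age, was measured. The authors used HISAT2 with mm9 and deposited FPKM values from Cuffdiff, 1 table per age; versions are not given in the sources used here. The deposited Cuffdiff comparisons (fold changes, statistics, p-values, q-values) were not used, only their column of gene positions. Columns are numbered 0 to 5 and titles 1 to 6, so columns were assigned to groups, not to single samples.

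Genes averaging 1 FPKM or more over the 12 libraries of an age were fitted on log2(FPKM + 0.1) with limma 3.58.1 (R 4.3.3; lmFit, eBayes with trend, two-sided, Benjamini-Hochberg over all genes tested), checked on simulated data. Exact permutation tests took all 924 splits (smallest p 0.00216). One fit of 24 libraries compared the genotype effects of the ages. Python 3.11.15 (numpy 2.4.6, pandas 2.3.3, scipy 1.17.1, matplotlib 3.10.9) served for the rest. Effective depth assumed 200-base fragments.

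The alternatives were other pseudocounts (1, 0.01), filters (none, or 5 FPKM on average), scalings (median-of-ratios, quantile), limma without the trend or with array weights, a batch term, a replicate block, and each library left out. The batch term was the olfactory receptor split at P1 and the split at 1000 FPKM of Rn45s at P30. Both splits were read from the values, since the labels name no batch. Depth weights, the 45S term and subsets of libraries were added after seeing the data. All 9 genes are named, and of the 6 lists of axon initial segment and node genes the genes called and the smallest p of each list at each age; Scn4a, Scn10a and the cell type markers, of which those called are named, were chosen after their values were seen. The members and lists were chosen with earlier results of these data known. Sptbn4 and Scn2a are Spnb4 and Scn2a1 in GENCODE vM1. Libraries of a group shared at most 0.00753% of values. Some genes of the lists are not reported here by name.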

Additional observations from a re-analysis of the deposited data

Results flagged for a closer look

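Of 52 sets of 6 values examined for a library far from the rest of its group (the 9 genes and the 4 shares), 3 held one, where chance gives about 1 in 20 sets. Scn4b in Kdm6b-cKO library 5 at P1 was at 5.69 FPKM, against 0 to 0.0777 in the other 5; the value rests on 5 reads in the library of 191000 effective reads, 1 of those with olfactory receptor signal. The share of Scn8a in WT library 4 at P1 was 17.5%, against 13.2% to 14.5% in the others, and this library was the shallowest of its group at 819000 effective reads. Scn2b in WT library 0 at P30 was at 12.6 FPKM, against 6.29 to 8.37 in the others, and this was the 1 WT library with low 45S.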

How the results depend on the processing

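No member was called at P1 under 26 alternatives, nor for the difference of genotype effects between ages under 36. At P30, of 25 alternatives, array weights alone called members, 2 of 9 (Scn2b and Scn4b), at a setting that called 530 of all genes against 37. At P1, depth weights called 408 of all genes against 0, and at P30 the batch term called 550, a 45S term 275 and the libraries of higher 45S 759. For the difference between ages, leaving out 1 library called 0 to 91 of all genes against 1, with 91 without Kdm6b-cKO library 4 at P1 and 69 without Kdm6b-cKO library 5 at P1.

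Of 207 values of single genes at P1, 199 kept their direction and side of the threshold; at P30 203 of 224; for the difference between ages 285 of 287. Reversed at P1 were Ank3 (-0.11 under quantile normalization, -0.14 under array weights, -0.08 under depth weights, -0.15 without the high-45S libraries), Nfasc (-0.06 under depth weights, -0.09 without those libraries) and Sptbn4 (-0.10 under depth weights). At P30 they were Nfasc (-0.02 under quantile normalization, -0.64 under array weights, -0.31 under depth weights), Scn3a (-0.03) and Scn8a (-0.19) under array weights, Scn1a (0.05) and Sptbn4 (0.32) under the batch term, and among libraries of higher 45S Scn1a (0.14), Scn2b (-0.11) and Sptbn4 (0.34). Between ages Nfasc was reversed under the batch term (0.31) and the 45S term (0.02). Leaving out 1 library at a time gave -0.01 to 0.21 for Ank3 at P1, -0.20 to 0.23 for Nfasc, -0.37 to 0.04 for Sptbn4 and -0.01 to 0.13 for Scn3a at P30. Single libraries turned these: Kdm6b-cKO 0 for Ank3, WT 0 for Scn3a, Kdm6b-cKO 0 or 5 for Sptbn4, and WT 0, 4 or 5 or Kdm6b-cKO 2, 3 or 4 for Nfasc, none of them called. The cause was not tested.

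With the library number as a replicate block, 0 members were called at either age, 0 of all genes at P30, and Scn2a at P1 stayed at -0.63 (adjusted p = 0.467). The numbers do not pair the samples: deviations of same-numbered libraries correlated between -0.18 and 0.23 at P1 and between -0.3 and 0.33 at P30, and 0 of 6 at P1 and 1 of 6 at P30 were closest to their own number. Scn2b at P1 and Scn4b at P30 gave no value at a mean of at least 5 FPKM. Under the block the adjusted p of Chl1 was 0.191, of Mbp and Sox10 0.131, of Mag 0.0644 and of Slc17a6 0.191. Depth limits the precision of 4 libraries at P1, WT 4 and Kdm6b-cKO 0, 1 and 5, with 191000 to 834000 effective reads against 1091000 to 3900000 in the others.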
